A study of Drosophila melanogaster with 16 samples.

Results

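The GstE genes of Drosophila melanogaster encode Epsilon class glutathione S-transferases, and their expression was followed across 8 genotypes of naïve embryos in which Wnt signaling was activated, blocked or left alone. The members were GstE1, GstE2, GstE3, GstE5, GstE6, GstE7, GstE8, GstE9, GstE10 and GstE11. The list leaves out GstE4 of the same cluster and GstE12, GstE13 and GstE14, which lie elsewhere. Its rule uses gene names and no measured value, but the members were chosen with earlier results of these data known. Of these 10 genes, 9 had an array probeset that maps to them alone, and all 9 passed the filter on low values, among 8860 genes tested of 11893 with such a probeset. GstE8 had none and has no values here.

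Naïve embryos come from mothers mutant for bcd, nos and tsl (alleles bcd E1, nos L7 and tsl 146), so they lack the maternal cues for head, tail and termini, and they do not gastrulate. All genotypes shared these maternal mutations, including the embryos called WT, which expressed no Wnt transgene. In the others, da-Gal4, which is active throughout the embryo, drove UAS transgenes. In tcf∆N-short, embryos expressed a form of TCF, the DNA-binding factor of the pathway, without the parts that bind Arm and Groucho and without the C-clamp. The tcf∆N-long form lacked only the Arm-binding part, and both TCF transgenes carried 3 HA tags and sat at 1 genomic landing site. Wg++ embryos overexpressed the ligand Wg, and arm∆N embryos expressed Arm, the fly β-catenin, without the N terminus through which it is degraded. DisArmed embryos expressed an Arm with its C-terminal activation domain deleted and its Pygopus-binding site mutated, and Otk++ embryos overexpressed the receptor-like protein Otk. The genotype arm∆N-tcf∆N-short carried both transgenes. Each genotype had 2 arrays, labelled as biological replicates, each from a pool of about 50 embryos aged 4 to 16 h. No source used here gives an age for any single array.

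Glutathione S-transferases join the tripeptide glutathione to reactive or foreign molecules, which makes these easier to remove. The Epsilon and Delta classes are the large insect classes, known for resistance to insecticides, as with GSTE2 of the mosquito Anopheles gambiae and DDT, and for clearing products of lipid peroxidation. Genes of both classes are known to respond to oxidative and chemical stress through CncC, the fly counterpart of Nrf2, which Keap1 holds back.

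The 9 measured genes lie on chromosome arm 2R of the Release 6 plus ISO1 MT assembly. All but GstE11 belong to a cluster of 10 Gst genes that runs 13.2 kb, 18396638 to 18409835, and also holds 2 pseudogenes. In order along the arm the cluster is GstE10, GstE1, GstE2, GstE3, GstE4, GstE5, GstE6, GstE7, GstE8 and GstE9. GstE11 stands alone, 93.8 kb beyond GstE9, at 18503608 to 18505025. The annotated gene spans of GstE10 and GstE1 share 127 bases, and those of GstE9 and its neighbour imd share 40 bases. Positions of the probes within the genes were not used here, so the part of such overlaps, or of cross-hybridisation between similar GstE transcripts, was not tested.

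Values are log2 intensities of 1 probeset per gene, with 2.289 as the lowest value on all 16 arrays and 13.77 as the highest in the table. Replicate arrays of a genotype correlated at 0.954 to 0.988 over the genes tested, and 10 of the 16 arrays had their own replicate as the nearest array. As a check of the labels, wg read 10.15 and 10.04 in Wg++ embryos, against 6.43 and 6.40 in WT. pan, the gene of TCF, read 10.41 to 11.21 in the 3 genotypes with a TCF transgene, against 4.60 and 5.36 in WT. otk read 7.62 and 7.67 in Otk++ and 6.69 and 7.33 in WT. With 7.34 and 7.48 in DisArmed, it does little to check the Otk++ label. The Arm transgenes of arm∆N, DisArmed and arm∆N-tcf∆N-short were not checked in this way. The 3 measured markers each of muscle and of neurons were above the lowest values in every genotype. Of 8 markers of epidermis 1 or 2 were near the lowest value, ple in all genotypes and sha in tcf∆N-short and Wg++, and of 3 of trachea btl was near it in Wg++ and arm∆N. The 3 measured markers of fat body, Lsp2, Fbp1 and Fbp2, were near the lowest value in all genotypes (list means 2.30 to 2.32). Their values say little about this tissue.

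GstE10, at 18396638 to 18398519, was the member with the lowest Wg++ values relative to the other genotypes. It read 5.04 and 5.75 in tcf∆N-short embryos, 5.68 and 5.68 in tcf∆N-long, 3.35 and 3.66 in Wg++, 4.97 and 4.99 in arm∆N, 5.70 and 5.06 in DisArmed, 4.83 and 5.17 in Otk++, 4.73 and 5.50 in arm∆N-tcf∆N-short and 6.07 and 5.46 in WT. Both Wg++ arrays lay under every other array, 1.48 below the next genotype mean, and no other neighbouring pair of genotypes in the order of means was free of overlap. GstE1, next to it at 18398393 to 18399223, encodes an enzyme known to conjugate 4-hydroxynonenal, a product of lipid peroxidation. It read 9.82 and 10.26 in tcf∆N-short embryos, 8.92 and 9.27 in tcf∆N-long, 9.12 and 9.29 in Wg++, 9.20 and 8.95 in arm∆N, 8.47 and 8.41 in DisArmed, 7.94 and 8.57 in Otk++, 8.39 and 9.51 in arm∆N-tcf∆N-short and 8.69 and 8.80 in WT. Here the tcf∆N-short arrays lay above all others, while the replicates of arm∆N-tcf∆N-short differed by 1.12, the widest gap of GstE1.

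GstE2, at 18399486 to 18400375, was dim throughout and varied least in absolute terms. It read 3.62 and 3.95 in tcf∆N-short embryos, 3.60 and 3.68 in tcf∆N-long, 3.12 and 3.31 in Wg++, 4.31 and 4.01 in arm∆N, 4.11 and 3.91 in DisArmed, 3.77 and 3.95 in Otk++, 3.35 and 3.77 in arm∆N-tcf∆N-short and 3.76 and 3.85 in WT. Its genotype means spanned 0.95, with arm∆N at the top and Wg++ under every other genotype. GstE3, at 18400713 to 18401467, spanned 2.87, the widest of the 9. It read 10.43 and 10.50 in tcf∆N-short embryos, 9.32 and 9.49 in tcf∆N-long, 7.55 and 7.64 in Wg++, 8.43 and 8.58 in arm∆N, 8.39 and 8.03 in DisArmed, 8.79 and 9.36 in Otk++, 9.28 and 10.01 in arm∆N-tcf∆N-short and 8.84 and 8.12 in WT. The tcf∆N-short arrays were above and the Wg++ arrays below all others, and the middle genotypes partly overlapped.

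GstE5, at 18404605 to 18405338, was high with either TCF form and with arm∆N. It read 6.37 and 6.99 in tcf∆N-short embryos, 6.12 and 6.56 in tcf∆N-long, 4.65 and 4.73 in Wg++, 6.33 and 6.25 in arm∆N, 5.91 and 5.40 in DisArmed, 5.21 and 5.48 in Otk++, 6.46 and 6.84 in arm∆N-tcf∆N-short and 5.61 and 4.82 in WT. Those 4 genotypes, which partly overlapped, lay above the other 4, and Wg++ lay below all. GstE6, at 18406011 to 18406761, had close replicates, with a median gap of 0.12 between them. It read 9.84 and 10.17 in tcf∆N-short embryos, 9.36 and 9.52 in tcf∆N-long, 8.06 and 8.02 in Wg++, 9.36 and 9.22 in arm∆N, 8.66 and 8.57 in DisArmed, 9.10 and 9.30 in Otk++, 9.54 and 9.53 in arm∆N-tcf∆N-short and 9.19 and 9.15 in WT. Again tcf∆N-short was highest and Wg++ lowest without overlap, and DisArmed was next above Wg++, under WT on both arrays.

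GstE7, at 18406924 to 18407688, was the cluster member, with GstE1, in which Wg++ was not the lowest genotype. It read 8.02 and 8.31 in tcf∆N-short embryos, 7.54 and 7.90 in tcf∆N-long, 7.83 and 7.66 in Wg++, 7.68 and 7.89 in arm∆N, 7.09 and 7.08 in DisArmed, 7.32 and 7.33 in Otk++, 7.54 and 7.91 in arm∆N-tcf∆N-short and 7.40 and 6.82 in WT. The tcf∆N-short arrays were above all others, then Wg++, arm∆N, arm∆N-tcf∆N-short and tcf∆N-long overlapped, and Otk++, WT and DisArmed lay lowest. GstE9, at 18409048 to 18409835, was highest in 2 genotypes. It read 7.0 and 7.06 in tcf∆N-short embryos, 6.37 and 6.23 in tcf∆N-long, 5.53 and 5.23 in Wg++, 7.17 and 6.90 in arm∆N, 5.88 and 5.81 in DisArmed, 5.56 and 6.11 in Otk++, 6.01 and 6.39 in arm∆N-tcf∆N-short and 6.37 and 5.83 in WT. The arm∆N and tcf∆N-short arrays overlapped and lay above all others, and Wg++ lay below all others. A second probeset of GstE9 read 2.34 to 3.06 on the 16 arrays, near the lowest value, and passed in no comparison.

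As in GstE10, WT was the highest genotype in GstE11, the member outside the cluster. It read 6.28 and 6.11 in tcf∆N-short embryos, 5.97 and 6.12 in tcf∆N-long, 5.74 and 5.94 in Wg++, 6.71 and 6.07 in arm∆N, 6.31 and 6.30 in DisArmed, 6.35 and 6.82 in Otk++, 6.31 and 6.11 in arm∆N-tcf∆N-short and 7.04 and 7.43 in WT. Both WT arrays lay above all 14 others. Over the 9 genes, 44 of 63 steps between neighbouring genotypes in the order of means had overlapping arrays.

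**Figure D1:**
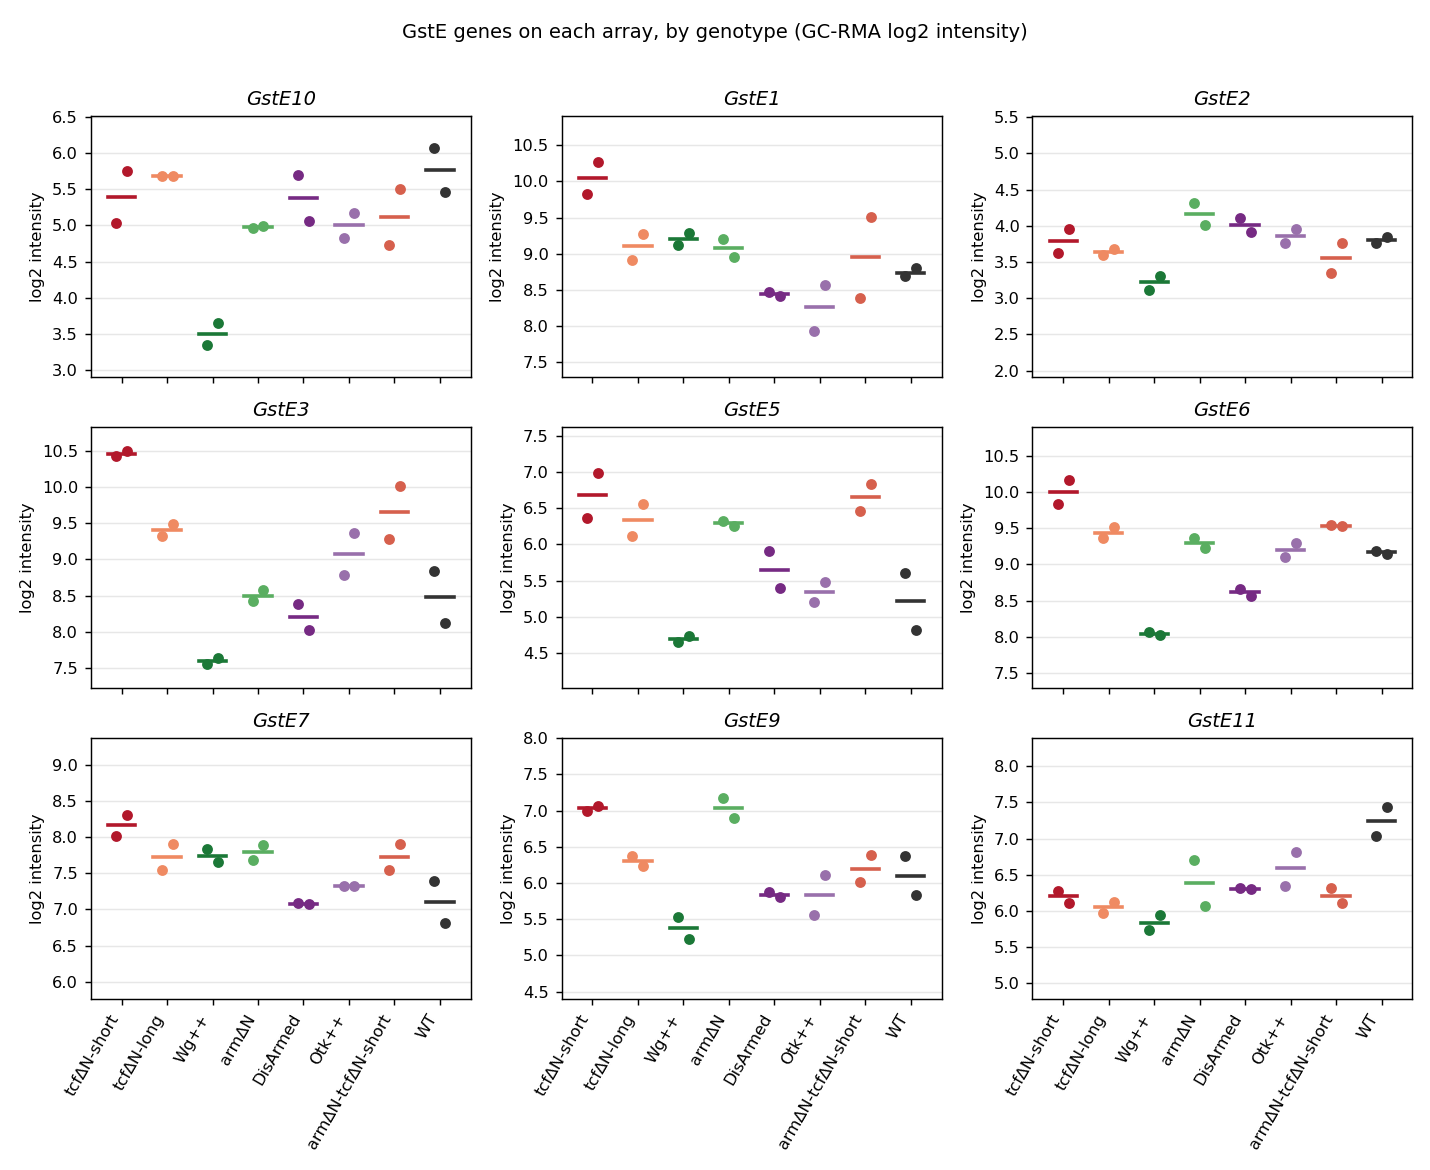
Log2 intensity (y axis) of the 9 GstE genes on each of the 16 arrays, by genotype (x axis), with points for arrays and lines for genotype means. The tcf∆N-short points are the highest for GstE1, GstE3, GstE6 and GstE7, the Wg++ points are the lowest for all genes but GstE1 and GstE7, and the WT points are the highest for GstE11.

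Limma's F test over the 7 comparisons with WT asked which genes were altered in any genotype. At an FDR under 1%, 5 of the 9 GstE genes passed, against 12.3% of all genes tested. These were GstE6 (adjusted p = 0.000292), GstE3 (adjusted p = 0.00111), GstE5 (adjusted p = 0.00477), GstE9 (adjusted p = 0.00501) and GstE10 (adjusted p = 0.009). The other 4 had adjusted p values of 0.0223 to 0.0486. The count was 2 when the expression filter was dropped and 2 to 6 when single arrays were left out, with 2 without tcf∆N-long replicate 2 or any single Wg++ or arm∆N array, and 3 without tcf∆N-long replicate 1 or either DisArmed array.

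The single comparisons called a gene that differed by more than 1.5 times, up or down, with a limma FDR below 10% over all 8860 genes. The 7 comparisons with WT share the 2 WT arrays, so their values stand side by side and are not independent. Of the 63 tests of a GstE gene against WT, 12 were called higher, 10 lower and 41 did not pass. GstE5 and GstE7 were each called higher in 3 genotypes and lower in none, and GstE11 was called lower in 5 and higher in none. GstE3, GstE6 and GstE9 were called in both directions, depending on the genotype. Of the 22 calls, 5 held whichever of the 16 arrays was left out, namely GstE3 and GstE6 in tcf∆N-short and GstE6, GstE10 and GstE11 in Wg++. Since whole embryos were measured, a change in RNA per cell and a change in the number of expressing cells cannot be told apart in any of these results.

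**Figure D2:**
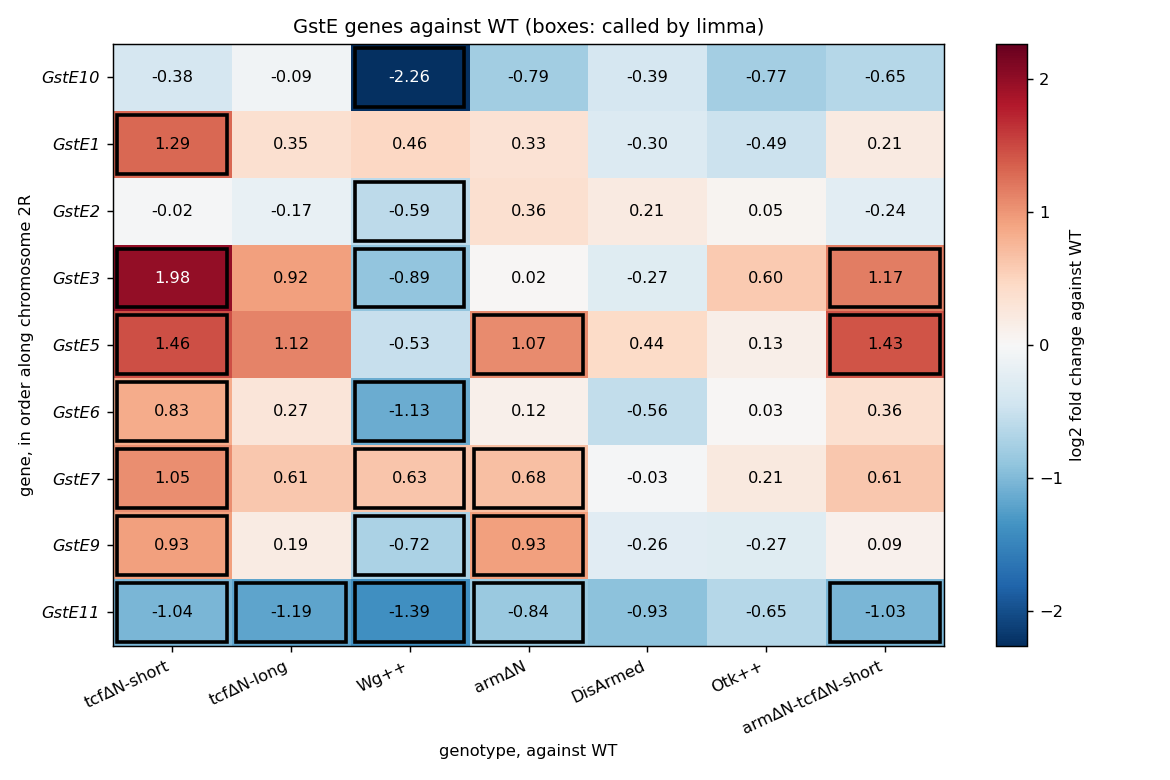
Log2 fold change against WT of the 9 GstE genes (rows, in order along the chromosome arm) in the 7 other genotypes (columns), in red where higher and blue where lower than WT. Boxes mark the 22 calls by limma, 7 of them in tcf∆N-short and 7 in Wg++, with GstE10 in Wg++ the lowest value at -2.26 and GstE3 in tcf∆N-short the highest at 1.98.

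Against WT, tcf∆N-short raised most of the cluster. Of the 9 genes, 6 were called higher and 1 lower, against 2.51% of all genes called higher and 5.20% lower (7.71% in either direction). GstE3 was 3.96 times as high as in WT, with a log2 fold change of 1.98 (SE 0.30, limma adjusted p = 0.00358, n = 2 arrays each). GstE5 rose by 1.46 (SE 0.31, adjusted p = 0.0226), GstE1 by 1.29 (SE 0.34, adjusted p = 0.0552) and GstE7 by 1.05 (SE 0.23, adjusted p = 0.025). GstE9 and GstE6, at the far end of the cluster, rose by 0.93 (SE 0.24, adjusted p = 0.0578) and 0.83 (SE 0.16, adjusted p = 0.014). GstE11 was lower at -1.04 (SE 0.24, adjusted p = 0.0363). GstE2 (-0.02, adjusted p = 0.974) and GstE10 (-0.38, adjusted p = 0.59) did not pass, and their tcf∆N-short arrays overlapped those of WT. The median log2 fold change of the 9 was 0.93, beside 0.00 over all genes tested. Without WT replicate 2, 2 calls were left, those of GstE3 and GstE6, and without either tcf∆N-short array 4 were left, while GstE1 was lost without WT replicate 1 as well. A fit of only these 4 arrays called 0.

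In tcf∆N-long, the longer form, 1 of the 9 genes was called, against 2.25% of all genes called lower and 3.72% in either direction. This was GstE11, lower at -1.19 (SE 0.24, limma adjusted p = 0.0404). GstE5 was at 1.12 (SE 0.31, adjusted p = 0.101), GstE3 at 0.92 (SE 0.30, adjusted p = 0.146) and GstE7 at 0.61 (SE 0.23, adjusted p = 0.201), and none passed. In this comparison 5 of the 9 genes had both arrays above both WT arrays, against 18.6% of all genes. Another 2 had both arrays below, against 30.8%. The median of the 9 was 0.27, beside -0.08 over all genes. GstE11 was not called without either tcf∆N-long array, and GstE5 was called as well without WT replicate 1 or without either tcf∆N-short array, which gave a count of 2.

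Set directly against tcf∆N-long, tcf∆N-short had higher GstE values on average, yet 0 of the 9 genes were called, against 3.19% of all genes, 1.08% higher and 2.11% lower. At an unadjusted p under 0.05, 4 GstE genes were higher, against 7.10% of all genes. They were GstE3 at 1.06 (95% confidence interval 0.40 to 1.72, limma adjusted p = 0.121), GstE1 at 0.94 (0.20 to 1.68, adjusted p = 0.234), GstE9 at 0.73 (0.20 to 1.27, adjusted p = 0.196) and GstE6 at 0.56 (0.21 to 0.92, adjusted p = 0.127). The intervals of the other 5 genes included 0. The median of the 9 was 0.45, beside 0.07 over all genes. Without either WT array 1 gene was called, and without either arm∆N-tcf∆N-short array 2 were.

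In Wg++ the GstE genes moved mainly down. Of the 9, 6 were called lower and 1 higher, against 22.1% of all genes lower and 18.8% higher, or 40.8% in either direction, so that calls were common in this genotype. GstE10 fell to 20.8% of its WT level, a log2 fold change of -2.26 (SE 0.34, limma adjusted p = 0.00134). GstE11 was lower at -1.39 (SE 0.24, adjusted p = 0.00218) and GstE6 at -1.13 (SE 0.16, adjusted p = 0.00111). Smaller decreases were called for GstE3 at -0.89 (SE 0.30, adjusted p = 0.0387), GstE9 at -0.72 (SE 0.24, adjusted p = 0.0386) and GstE2 at -0.59 (SE 0.20, adjusted p = 0.0386). GstE7 was higher at 0.63 (SE 0.23, adjusted p = 0.048). GstE1 (0.46, adjusted p = 0.312) and GstE5 (-0.53, adjusted p = 0.207) did not pass. The median of the 9 was -0.72, beside -0.11 over all genes, and cyclic loess between arrays, which brought the median over all genes close to 0, dropped the calls of GstE2 and GstE9. The calls of GstE2, GstE3, GstE7 and GstE9 were each lost without 1 of the WT arrays and without 1 or both of the Wg++ arrays, with 4 genes called without Wg++ replicate 1, and a fit of these 4 arrays also called 4.

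In arm∆N, the other activated genotype, 3 GstE genes were called higher and 1 lower, against 7.92% of all genes higher and 11.6% lower, or 19.6% in either direction. GstE5 was at 1.07 (SE 0.31, limma adjusted p = 0.0436), GstE9 at 0.93 (SE 0.24, adjusted p = 0.0311) and GstE7 at 0.68 (SE 0.23, adjusted p = 0.0723), all higher than in WT. GstE11 was lower at -0.84 (SE 0.24, adjusted p = 0.0436). GstE10 was at -0.79 (SE 0.34, adjusted p = 0.149), GstE2 at 0.36 and GstE1 at 0.33, while GstE3 at 0.02 and GstE6 at 0.12 were close to WT. The median of the 9 was 0.33, beside -0.08 over all genes. Without WT replicate 2 all 4 calls were lost and GstE10 was called in their place, without arm∆N replicate 1 GstE11 was left and without arm∆N replicate 2 GstE9, and the fit of these 4 arrays alone called 0. GstE7 was also lost without either DisArmed array.

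Both genotypes activate the canonical pathway, at the ligand or at Arm, and the GstE genes differed between them. Wg++ was lower than arm∆N in 6 of the 9 genes, against 18.4% of all genes called lower, and higher in 0, against 18.7% (37.1% in either direction). GstE9 was lower at -1.65 (SE 0.24, limma adjusted p = 0.00351), GstE5 at -1.60 (SE 0.31, adjusted p = 0.0055) and GstE10 at -1.48 (SE 0.34, adjusted p = 0.0101). GstE6 was lower at -1.25 (SE 0.16, adjusted p = 0.00244), GstE2 at -0.95 (SE 0.20, adjusted p = 0.00732) and GstE3 at -0.91 (SE 0.30, adjusted p = 0.0408). GstE7 (-0.04, 95% confidence interval -0.54 to 0.46) and GstE1 (0.13, -0.61 to 0.87) did not pass, and GstE11 at -0.55 missed the threshold (adjusted p = 0.11). The median of the 9 was -0.95, beside -0.04 over all genes. The calls of GstE2, GstE5, GstE6, GstE9 and GstE10 held on leaving out any single array, and that of GstE3 was lost without either Wg++ array or arm∆N replicate 2.

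**Figure D3:**
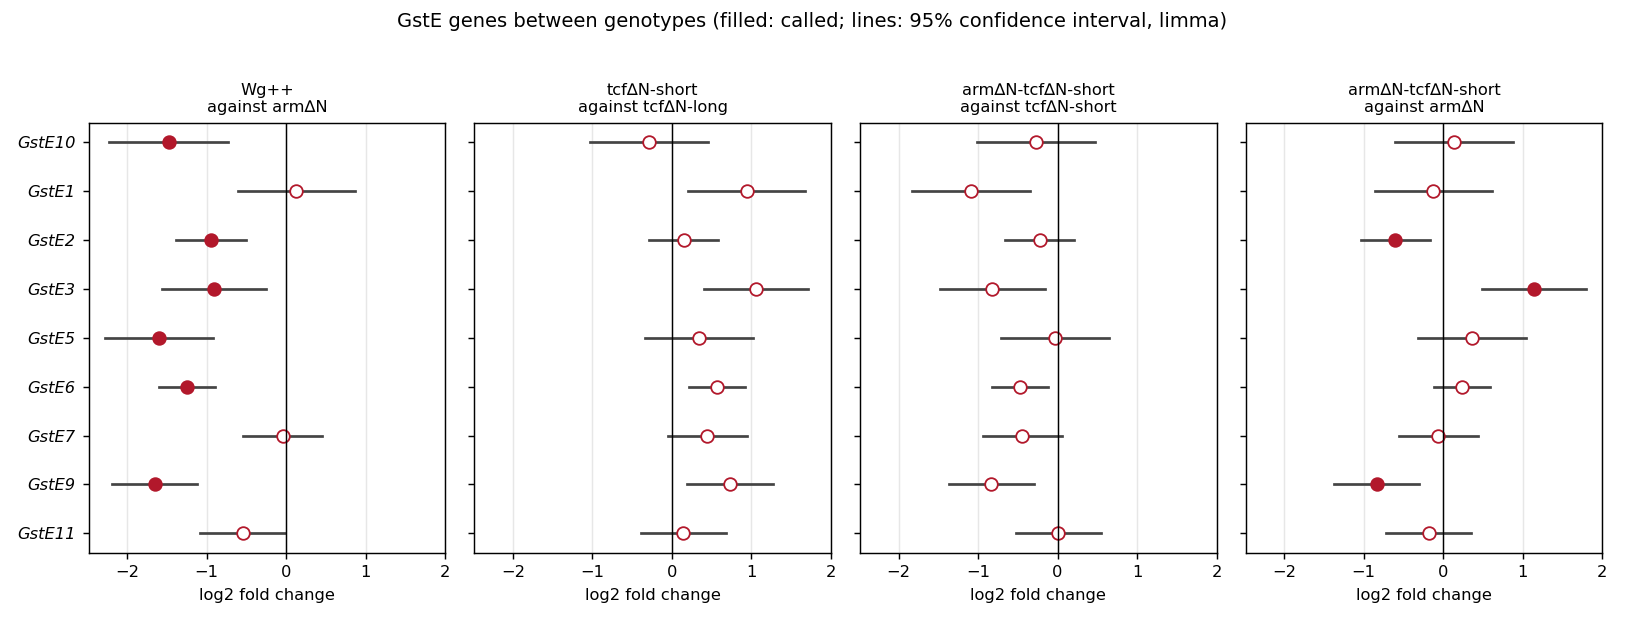
Log2 fold change of each GstE gene (rows) between genotypes in 4 comparisons (panels), with 95% confidence intervals from limma as lines and filled points where called. In Wg++ against arm∆N 6 genes are called lower, 0 are called in tcf∆N-short against tcf∆N-long or in arm∆N-tcf∆N-short against tcf∆N-short, and 3 are called in arm∆N-tcf∆N-short against arm∆N.

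No GstE gene was called in DisArmed or in Otk++ by limma. In DisArmed 0.598% of all genes were called in either direction, and in Otk++ 0.327%. At an unadjusted p under 0.05, 2 GstE genes were lower in DisArmed, where 5.09% of all genes were, GstE11 at -0.93 (adjusted p = 0.213) and GstE6 at -0.56 (adjusted p = 0.288). In Otk++, where 9.10% of all genes were lower at that level, these were GstE10 at -0.77 (adjusted p = 0.284) and GstE11 at -0.65 (adjusted p = 0.23). The medians of the 9 were -0.27 in DisArmed and 0.03 in Otk++, beside -0.05 and -0.06 over all genes. Both counts stayed at 0 on leaving out any single array.

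With both transgenes, arm∆N-tcf∆N-short, 2 GstE genes were called higher than in WT and 1 lower, against 1.70% of all genes higher and 1.47% lower, or 3.17% in either direction. GstE5 was at 1.43 (SE 0.31, limma adjusted p = 0.0398), GstE3 at 1.17 (SE 0.30, adjusted p = 0.086) and GstE11 at -1.03 (SE 0.24, adjusted p = 0.0596). GstE10 at -0.65, GstE7 at 0.61, GstE6 at 0.36, GstE2 at -0.24, GstE1 at 0.21 and GstE9 at 0.09 did not pass. The call of GstE3 held in only 4 of the 16 fits without 1 array. No call was left without WT replicate 2 or arm∆N-tcf∆N-short replicate 2, 1 was left without either DisArmed array, and the fit of these 4 arrays alone called 0. Against tcf∆N-short, 0 of the 9 genes were called, against 0.169% of all genes, 0.102% higher and 0.0677% lower. At an unadjusted p under 0.05, 4 were lower, against 2.04% of all genes, GstE1 at -1.09, GstE9 at -0.83, GstE3 at -0.82 and GstE6 at -0.47 (adjusted p = 0.556 to 0.757). Against arm∆N, where 6.26% of all genes were called higher and 5.36% lower (11.6% in either direction), GstE3 was higher at 1.14 (SE 0.30, adjusted p = 0.0422), and GstE9 at -0.84 (SE 0.24, adjusted p = 0.0629) and GstE2 at -0.60 (SE 0.20, adjusted p = 0.0968) were lower. These 3 calls were lost without either arm∆N array, 1 was left without arm∆N-tcf∆N-short replicate 1, and that of GstE2 held in 3 of the 16 fits without 1 array.

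The effect of arm∆N with tcf∆N-short present was set against its effect without it, by a contrast chosen after the data were seen. GstE9 was at 0.93 for arm∆N against WT and at -0.83 for arm∆N-tcf∆N-short against tcf∆N-short, which did not pass, a difference of -1.76 (SE 0.34, limma adjusted p = 0.0202). GstE9 was called higher than in WT with each transgene alone. With single arrays left out, its log2 fold change ran from 0.66 to 1.20 in both genotypes. The genotype with both transgenes read 6.01 and 6.39, overlapping the 6.37 and 5.83 of WT. For GstE7 the difference was -1.12 (SE 0.32, adjusted p = 0.07), with effects of -0.44 with and 0.68 without tcf∆N-short. GstE1, at -1.42 (SE 0.47, adjusted p = 0.105), and the other 6 genes did not pass. Of all genes, 4.12% were called lower and 7.08% higher in this contrast, 11.2% in all. Among the Delta class (GstD) genes described below, 7 of 11 were called lower, with a median of -1.18. So were 5 of 6 tested Bomanin genes beside the cluster, also described below, with a median of -3.79. Of the 4 other Epsilon genes and the 11 tested GSTs of other classes 0 were called. GstE9 was called whichever array was left out, with differences of -2.03 to -1.49, and GstE7 in 8 of the 16 cases.

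On the GstE10 side lie Idgf5, an imaginal disc growth factor, and beyond it Bomanin genes, short peptide genes known as targets of the Toll immune pathway. Idgf5 was called in 2 of the 11 comparisons, lower at -0.87 in arm∆N-tcf∆N-short (limma adjusted p = 0.058) and at -0.86 in Wg++ (adjusted p = 0.0251), both against arm∆N. Of 10 Bomanin genes within 20 kb, 6 were tested. All 6 were called higher in Wg++, at 1.41 to 3.65, and in arm∆N, at 2.96 to 5.05, by limma. In tcf∆N-short 5 were called higher, with all 6 at 2.32 to 3.49, and in arm∆N-tcf∆N-short all 6, at 2.81 to 3.87. BomT2, for example, read 6.37 and 5.92 in Wg++ and 7.11 and 7.66 in arm∆N, against 2.67 and 2.32, near the lowest value, in WT. BomS4 was near the lowest value in WT too, so that the fold changes of these 2 may be understated. In tcf∆N-short, GstE and Bomanin genes were both called higher, while in Wg++ the Bomanin genes were higher and GstE10, GstE2, GstE3, GstE6 and GstE9 lower than in WT. On the GstE9 side lies imd, which encodes the adaptor protein of the Imd immune pathway. It read near the lowest value in every genotype, at 2.30 to 3.19, so that its values say little about its expression.

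**Figure D4:**
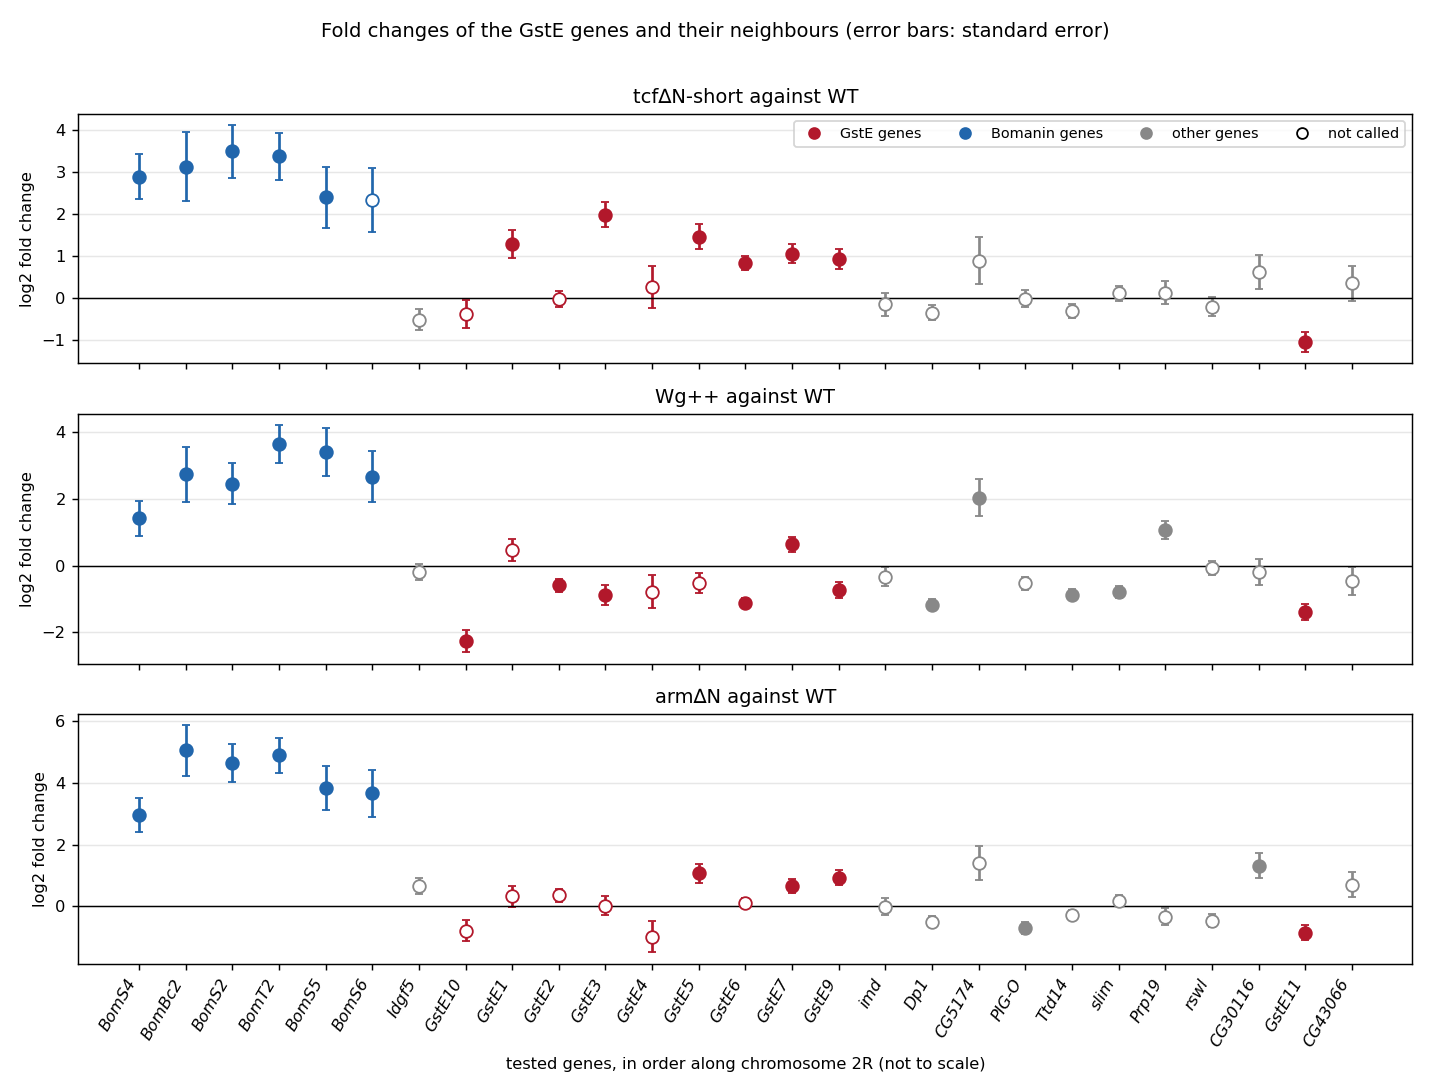
Log2 fold change (y axis, with standard errors) of the tested genes around the GstE cluster, in order along the chromosome arm (x axis, not to scale), in tcf∆N-short, Wg++ and arm∆N against WT, with filled points where called. The 6 Bomanin genes lie above 0 in all 3 panels, whereas the GstE genes (red, GstE4 among them) lie partly above and partly below 0, with GstE10 at -2.26 in Wg++.

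Of the other Epsilon genes, GstE4 lies within the cluster between GstE3 and GstE5, and GstE12, GstE13 and GstE14 lie elsewhere. GstE14 is known for its part in making the steroid hormone ecdysone. Against WT, limma called 1 of these 4 in Wg++, GstE13, which was higher at 0.67 (adjusted p = 0.011), and 0 in each of the other 6 genotypes, where 0 of 24 tests had an unadjusted p under 0.05. GstE4 read 3.64 and 4.62 in tcf∆N-short and 3.07 and 3.08 in Wg++, against 4.26 and 3.48 in WT, and passed in none of the 11 comparisons (1 at an unadjusted p under 0.05). GstE14 read 2.35 to 2.65, near the lowest value in every genotype.

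The Delta class genes lie together on another chromosome arm. Of 11 GstD genes, 9 were called higher in tcf∆N-short, with a median of 2.04 over the 11, among them GstD10 at 2.64 (limma adjusted p = 0.000272) and GstD5 at 2.32 (adjusted p = 0.00237). GstD4 read 4.62 and 4.24 in tcf∆N-short, against 2.41 and 2.36 in WT (adjusted p = 0.000597). It was near the lowest value in WT, as was GstD6, so that their fold changes and that median may be understated. GstD11 was near the lowest value in every genotype, so that its values say little about its expression. In Wg++ 1 GstD gene was called, GstD9, higher at 1.15 (adjusted p = 0.00429), and the median was -0.02. In arm∆N 4 were called higher, with a median of 0.22. In tcf∆N-long and arm∆N-tcf∆N-short 1 each was called, GstD10 in both, and in DisArmed GstD5 was lower at -2.14 (adjusted p = 0.0201). Of GSTs of other classes, 11 of 12 were tested. In tcf∆N-short 0 of these were called, 2 had an unadjusted p under 0.05, and the median was 0.21. In Wg++ 3 were called higher, GstZ1 at 0.65 (adjusted p = 0.0445), GstT1 at 0.72 (adjusted p = 0.0667) and GstO2 at 0.73 (adjusted p = 0.0742).

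Of 16 genes of glutathione synthesis and thiol redox, 9 were tested. In Wg++ 4 of these were called lower, Trx2, a thioredoxin, at -0.89 (limma adjusted p = 0.00525), Gclm, the modifier subunit of the enzyme that starts glutathione synthesis, at -0.73 (adjusted p = 0.0108), Grx1, a glutaredoxin, at -0.83 (adjusted p = 0.0339) and Idh at -0.63 (adjusted p = 0.0989). Gclm was also lower in arm∆N, at -0.92 (adjusted p = 0.0109), and in tcf∆N-short Gtpx, a peroxidase, was higher at 0.80 (adjusted p = 0.0562). cnc, Keap1 and maf-S, which encode CncC, its inhibitor and its partner, were called in none of the 11 comparisons, with 4 of 33 tests at an unadjusted p under 0.05. Their log2 fold changes lay between -0.52 and 0.55.

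Markers of tissue and stage were set beside these values. The midgut is a tissue in which GSTs are known to be expressed, and 12 probesets of larval midgut enzymes averaged 6.59 in tcf∆N-short embryos, 7.28 in tcf∆N-long, 3.83 in Wg++, 4.36 in arm∆N, 4.90 in DisArmed, 5.28 in Otk++, 6.73 in arm∆N-tcf∆N-short and 5.70 in WT. In Wg++ 9 of these 12 were near the lowest value, in arm∆N 6, and in tcf∆N-short and WT 0. Against WT, limma called 4 of the 12 higher and 1 lower in tcf∆N-short, 6 higher in tcf∆N-long, 7 lower in Wg++, 1 higher and 6 lower in arm∆N, 4 higher and 1 lower in arm∆N-tcf∆N-short and 0 in DisArmed and in Otk++. They did not all run one way, as the serine protease gene Jon65Aiii averaged 3.40 in tcf∆N-short and 10.11 in arm∆N, against 8.74 in WT. The mean of the 12 was lowest in Wg++, where 6 GstE genes were called lower, and above WT in tcf∆N-short, where 6 were called higher. It was highest in tcf∆N-long, where 0 GstE genes were called higher, and low in arm∆N, where 3 were. Maternal egg transcripts, 5 probesets, averaged 8.61 in Wg++, 7.79 in tcf∆N-short, 7.48 in arm∆N and 6.38 in WT, with 4 of the 5 called higher in Wg++ and 0 in both of the others. Replicate arrays lay apart in tcf∆N-short, at 8.33 and 7.26, and in arm∆N-tcf∆N-short, at 7.44 and 5.88. Blood cell markers, 8 probesets, averaged 4.41 in Wg++, 5.04 in arm∆N and 5.56 in WT, with 3 of 7 tested called lower in Wg++ and 3 in arm∆N. The part of these tissues and of embryo stage in the GstE values was not tested.

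The profiles of the 9 genes over the 8 genotype means were partly alike, given here as a description since all genes share the same 16 arrays. Of 36 pairs of members, 28 correlated above 0, with a median of 0.49. The closest pair was GstE3 and GstE6, at 0.93, followed by GstE1 and GstE7 at 0.88 and GstE5 and GstE6 at 0.84. The lowest was GstE7 with GstE11, at -0.62. Among all other genes tested, Pgm1, a phosphoglucomutase gene, was closest to the mean profile of the 9, at 0.96, followed by Ugt49B1 at 0.94 and Irc, an immune-regulated catalase gene, at 0.93. The single closest gene to GstE3 and to GstE6 was pelo, which encodes a factor that frees stalled ribosomes, at 0.96 and 0.93, and the closest to GstE10 was ND-ACP, a mitochondrial acyl carrier protein gene, at 0.98.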

How the data were processed

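Total RNA of 16 embryo pools was hybridised to Affymetrix Drosophila 2 arrays. The deposited values are log2 intensities that the authors made with GC-RMA, which corrects background by the GC content of probes and normalizes between arrays (version not given in the sources used here). Arrays have no read depth, and 2 per genotype limit the precision. The platform annotation gives 1 gene for 13647 of the 18952 probesets, several for 402 and none for 4903. The RefSeq gene table held the gene of 13544. wg and pan were named through the study's supplementary table.

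The filters followed the methods (single-gene probesets, the largest interquartile range per gene, above 2.5 on at least 2 arrays, assembled chromosomes). All arrays were fitted with limma 3.58.1 (R 4.3.3), using 1 coefficient per genotype, and p-values were adjusted by Benjamini-Hochberg over 8860 genes. The p-values set each difference against the spread between replicate pools. That spread was estimated over all genotypes together and drawn by limma towards a value shared by all genes. The fits were tested on simulated data.

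Named were all members, up to 4 called genes with the lowest adjusted p of other lists, cluster neighbours within 20 kb and the genes closest in profile (Pearson r over 8 genotype means). Members and lists were chosen with earlier results of these data known. Values under 3 are called near the lowest value. Alternatives were another expression filter or none, another probeset, a trended robust prior, cyclic loess, a replicate block, fewer genotypes, a 5% FDR and leaving out single arrays. Arrays with Wnt4 were not analysed here.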

Additional observations from a re-analysis of the deposited data

Results flagged for a closer look

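For 2 GstE genes the effect of arm∆N differed with and without tcf∆N-short by a test of the difference itself. This contrast was added after the data were seen. It was not particular to GstE genes, as 7 of 11 GstD genes and 5 of 6 tested Bomanin genes were called lower too, against 4.12% of all genes. GstE9 differed by -1.76 on the log2 scale (SE 0.34, limma adjusted p = 0.0202), with 0.93 for arm∆N against WT, which was called, and -0.83 for arm∆N-tcf∆N-short against tcf∆N-short, which did not pass (adjusted p = 0.556). GstE7 differed by -1.12 (SE 0.32, adjusted p = 0.07), and this call was lost in 8 of the 16 fits without 1 array.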

How the results depend on the processing

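No fold change of a named result changed sign past its threshold. Fitting only the 2 genotypes compared gave 0 calls for tcf∆N-short, tcf∆N-long, arm∆N and arm∆N-tcf∆N-short against WT and for arm∆N-tcf∆N-short against arm∆N, and 4 for Wg++ against WT, with fewer arrays behind the spread. Fitting only the 4 genotypes of the interaction gave 0. At an FDR under 5%, 1 gene was called in arm∆N-tcf∆N-short against WT, in arm∆N-tcf∆N-short against arm∆N and in the interaction, and 9 in the F test. Without an expression filter the F test passed 2. For tcf∆N-long against WT the count was 2 with the highest-mean probeset and with cyclic loess, GstE5 being added. With a replicate block it was 2 in that comparison, 2 in tcf∆N-short against tcf∆N-long and 3 in the interaction, GstE1 being added there. In tcf∆N-short against WT, GstE1 was not called without an expression filter or with cyclic loess, and neither GstE1 nor GstE9 at an FDR under 5%. Replicate numbers share no stated batch, so the arrays were not treated as paired. Deviations of same-numbered arrays correlated at -0.528 to 0.676 over 28 pairs of genotypes (median 0.262), 20 of them above 0.1. Whether same-numbered arrays share a batch was not tested. Leaving out single arrays gave counts of 2 to 7 for tcf∆N-short against WT, 0 to 2 for tcf∆N-long, 4 to 7 for Wg++, 1 to 4 for arm∆N, 0 to 3 for arm∆N-tcf∆N-short, 0 to 2 for tcf∆N-short against tcf∆N-long, 0 to 3 for arm∆N-tcf∆N-short against arm∆N, 5 to 6 for Wg++ against arm∆N, 1 to 3 for the interaction and 2 to 6 for the F test. The lone remaining array is then assumed to vary like the other genotypes. The cause of these differences was not tested.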
